A study of Mus musculus with 23 samples.

Results

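The genes described here are 2 receptors for prostaglandin E2 (PGE2), Ptger2 and Ptger4, and 8 genes whose transcription cyclic AMP is known to raise: Crem, Pde4b, Rgs1, Rgs2, Nr4a1, Nr4a2, Nr4a3 and Fosl2. They were chosen by name, with earlier results of these data known, and all 10 were found among the 13572 gene rows of the count table. The counts came from type 1 conventional dendritic cells (cDC1), which take up dead cells and present their antigens to CD8 T cells. They were sorted from BRAFV600E melanomas by live CD45+ MHC-II+ CD11c+ CD103+ CD11b- surface staining. Wild-type C57BL/6 mice had received 2x10E6 melanoma cells under the skin 6 days earlier. In the control group the melanoma cells produced PGE2, and in the other group they carried a knockout of Ptgs1 and Ptgs2, the cyclooxygenases that make its precursor, and are called PGE2-deficient. The labels give no ages for the mice.

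Each group held 4 tumour-bearing mice, and each mouse gave up to 3 pools of 10 sorted cells for Smart-seq3 libraries. There were 12 control and 11 PGE2-deficient libraries, since the first pool of PGE2-deficient mouse 2 was not analysed here. The knockout was in the cancer cells and not in the host, whose own cells kept both cyclooxygenases, so the sorted cells offer no check of the deletion. The labels do not say whether the knockout melanoma cells were 1 clone. The tumours came from separate mice, and pools of 1 mouse were summed so that a mouse counted once.

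Of the receptors for PGE2, EP2 (encoded by Ptger2) and EP4 (encoded by Ptger4) couple to the stimulatory G protein, raise cyclic AMP and activate protein kinase A. Protein kinase A phosphorylates the transcription factor CREB, which binds cyclic AMP response elements and, with its CRTC coactivators, induces a fast set of genes. Several of those genes feed back on the pathway: Pde4b breaks cyclic AMP down, Crem encodes a repressor isoform that competes with CREB, and RGS proteins shorten G protein signals. In dendritic cells PGE2 is known to act on migration, cytokine output and survival through EP2 and EP4. The comparison asked how these genes stood in cDC1 of tumours whose cancer cells could or could not make PGE2.

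Summed counts per mouse ranged from 101017 to 230478, and single libraries held 25571 to 98554, with a median of 49506. Levels are given as CPM, the count relative to the mouse's scaled total over tested genes, as mean ± SD over 4 mice per group. With these depths 1 count was worth 5.10 to 11.9 CPM in a mouse. Of the 12 cDC1 markers on the list, all had counts. Irf8 stood at 837 ± 296 CPM in control and 1510 ± 205 in PGE2-deficient mice, and Clec9a at 172 ± 58.1 and 217 ± 62.5. Both are defining genes of cDC1. The summed cDC1 markers spanned 2934 to 5350 CPM in control mice and 5858 to 8654 CPM in PGE2-deficient mice, and 5 of the 11 tested rose (Irf8, Xcr1, Naaa, Tlr3 and Id2, edgeR). Leaving out 1 mouse in turn kept the calls of Xcr1 and Naaa in 8 of 8 fits, of Irf8 and Id2 in 4 and of Tlr3 in 2. In pools of sorted cells, fewer cells of a type and less RNA per cell cannot be told apart.

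In cDC1 of PGE2-deficient tumours Crem and Rgs2 fell, with adjusted p under the threshold of 0.05 used throughout (edgeR quasi-likelihood test over 2076 genes, Benjamini-Hochberg adjustment). Fosl2 showed the largest fold change of the 10 (log2 -2.72 in a fit without a count filter, edgeR). It stood at 129 ± 48.9 CPM in control and 16.3 ± 14.0 CPM in PGE2-deficient mice, but its counts were too low for the main test. Nr4a2 (440 ± 143 and 224 ± 63.6 CPM) and Pde4b (440 ± 150 and 241 ± 25.6 CPM) missed the threshold narrowly. Nr4a1 alone had a higher mean in PGE2-deficient mice, and its groups overlapped. Of the 7 members tested, 2 were called lower and 0 higher, where 2.26% of all tested genes were called lower and 2.7% higher. Since the members were chosen with earlier results of these data known, such shares are descriptions only. Nr4a1 was the 1 member higher at an unadjusted p under 0.05 (0.0398, edgeR), and DESeq2 called 0 members higher. The median log2 fold change over all tested genes was 0.01.

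**Figure D1:**
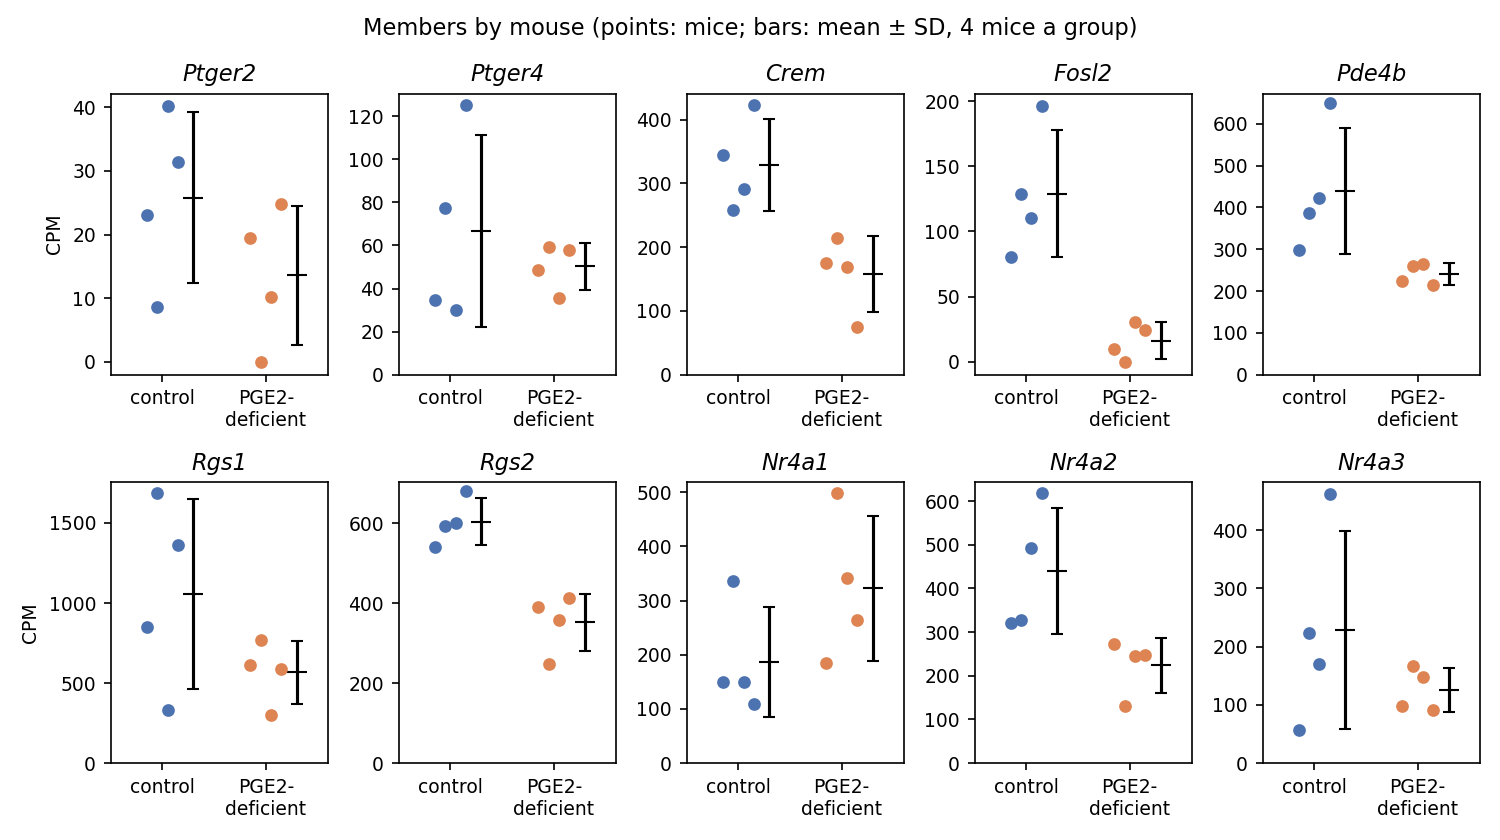
CPM of each of the 10 genes (vertical axes) in the 4 control and 4 PGE2-deficient mice, 1 point per mouse, with group means and SD. All 4 PGE2-deficient mice lie below all 4 control mice for Crem, Rgs2, Nr4a2, Pde4b and Fosl2, and the groups overlap for the other 5 genes.

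All 4 PGE2-deficient mice lay below all 4 control mice for 5 of the 10 genes: Crem, Rgs2, Nr4a2, Pde4b and Fosl2. No gene lay above. Among all tested genes, 5.73% were separated in the lower direction and 4.91% in the higher one. Of the 7 members tested, Crem, Rgs2, Nr4a2 and Pde4b were separated. Fosl2, Ptger2 and Ptger4 were not tested, and no such share was taken for genes of their low counts. The 5 separated genes encode the cyclic AMP response element modulator, a G protein regulator, a nuclear receptor, a phosphodiesterase and an AP-1 subunit.

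Ptger2 encodes EP2, on chromosome 14 (GRCm38, 44988195 to 45003820, plus strand). It had 11 counts over the control mice and 7 over the PGE2-deficient mice. Its CPM values in control mice 1 to 4 were 23.01, 8.60, 40.1 and 31.4, and in PGE2-deficient mice 1 to 4 they were 19.5, 0, 10.2 and 24.8. The count of 0 in PGE2-deficient mouse 2 allows a level of up to 35.6 CPM, which is 3 counts there, so the groups cannot be ordered at this depth. A count was present in 5 of 12 control libraries and in 5 of 11 PGE2-deficient libraries.

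Ptger4 encodes EP4, the receptor with the higher affinity for PGE2, on chromosome 15 (5206661 to 5244187, minus strand). It had 31 and 24 counts. The control values were 34.5, 77.4, 30.1 and 125 CPM, and the PGE2-deficient values 48.7, 59.3, 35.7 and 57.8 CPM, so all 4 PGE2-deficient values lay inside the control range. In a fit with the minimum count lowered from 10 to 5 its log2 fold change was -0.56 ± 0.49 (SE), with an adjusted p of 0.681 (edgeR). A count was present in 9 of 12 control and 11 of 11 PGE2-deficient libraries. Ptger4 was thus detected in every mouse of both groups.

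Crem, on chromosome 18 (3266048 to 3337748, minus strand), encodes the cyclic AMP response element modulator, including the inducible early repressor ICER. Its CPM values were 345, 258, 291 and 423 in control mice and 175, 214, 168 and 74.3 in PGE2-deficient mice. The highest PGE2-deficient mouse was below the lowest control mouse. The means were 329 ± 72.2 and 158 ± 59.2 CPM (143 and 78 counts), a log2 fold change of -1.08 ± 0.30 (SE) with an adjusted p of 0.0448 by edgeR's quasi-likelihood test. All 12 control libraries and 10 of 11 PGE2-deficient libraries had a count. Over libraries the lowest, median and highest values were 84.4, 321 and 626 CPM in control and 0, 138 and 293 CPM in PGE2-deficient pools. The counts do not separate ICER from the longer isoforms. The call was lost when any 1 of control mice 1, 3 or 4 or PGE2-deficient mice 1, 3 or 4 was left out, with adjusted p between 0.0550 and 0.119, while the log2 fold change stayed between -1.22 and -0.86 over all 8 omissions. Scaling by total counts alone also ended it (adjusted p 0.0662, edgeR), as did pools 2 and 3 alone (0.0577, edgeR).

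Pde4b encodes a phosphodiesterase that hydrolyses cyclic AMP, on chromosome 4 (102087543 to 102607259, plus strand). Control mice held 299, 387, 422 and 651 CPM and PGE2-deficient mice 224, 261, 265 and 215 CPM. The PGE2-deficient values were close together, and control mouse 4 was the highest of all. The means were 440 ± 150 and 241 ± 25.6 CPM, a log2 fold change of -0.87 ± 0.26 (SE) with an adjusted p of 0.0536 (edgeR), which did not pass. Of the 8 fits that left out 1 mouse, 1 called it, that without control mouse 1 (-1.03, adjusted p 0.0258). Without control mouse 4 it was -0.62 (adjusted p 0.221, edgeR).

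Rgs2, on chromosome 1 (143999338 to 144004161, minus strand), encodes a regulator that speeds the shut-off of G proteins and also acts on adenylyl cyclase. It was the most even of the 10 across control mice, with 541, 594, 602 and 682 CPM. PGE2-deficient mice held 390, 249, 357 and 413 CPM, all below the lowest control mouse. The means were 605 ± 58.4 and 352 ± 72.4 CPM (263 and 181 counts), a log2 fold change of -0.77 ± 0.21 (SE) with an adjusted p of 0.0406 by edgeR. Libraries ran from 220 to 856 CPM in control and from 122 to 622 CPM in PGE2-deficient tumours, with medians of 618 and 365 CPM. This call was lost without any 1 of control mice 2, 3 or 4 or PGE2-deficient mice 1, 2 or 3, with adjusted p between 0.0510 and 0.106. It was also lost with scaling by total counts alone (0.0760), without a count filter (0.0691) and with pools 2 and 3 alone (0.0722, edgeR). A fit over libraries with the mouse as a random effect gave an adjusted p of 0.0535 (limma-voom).

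Rgs1, its neighbour on chromosome 1 (144242296 to 144249242, minus strand), encodes a regulator that dampens chemokine receptor signals. The control mice held 851, 1686, 331 and 1364 CPM and the PGE2-deficient mice 614, 771, 301 and 586 CPM. Control mouse 3 sat among the PGE2-deficient mice, so the groups overlapped. The log2 fold change was -0.94 ± 0.34 (SE) with an adjusted p of 0.122 (edgeR), and it passed, at -1.25 with an adjusted p of 0.0144, when control mouse 3 was left out, and on leaving out none of the other 7 mice. With no count filter it passed at -0.97 (adjusted p 0.00092). A fit over libraries with the mouse as a random effect (limma-voom) put it at -0.19 with an adjusted p of 0.882.

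Fosl2 encodes FRA2, an AP-1 subunit that pairs with JUN proteins, on chromosome 5 (32135801 to 32157842, plus strand). The 4 control mice held 80.5, 129, 110 and 196 CPM and the PGE2-deficient mice 9.75, 0, 30.6 and 24.8 CPM. These rest on 58 and 10 counts, and the 0 in PGE2-deficient mouse 2 allows up to 35.6 CPM there. A count was present in 10 of 12 control libraries and in 5 of 11 PGE2-deficient libraries, with medians of 152 and 0 CPM. With a minimum count of 5 it entered the fit, where the log2 fold change was -2.75 ± 0.52 (SE) and the adjusted p 0.00229 (edgeR, 3741 genes). In that fit 1.76% of the tested genes were called lower. It passed the lowered minimum through its control counts, so the fit could admit it only because it was high there. With no count filter the adjusted p was 6.35e-05 (edgeR, 13311 genes), and 0.631% of the genes were called lower. DESeq2 gave -2.84 and no adjusted p.

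With the minimum count of 5, Crem (adjusted p 0.0347), Rgs2 (0.0351), Nr4a2 (0.0380) and Pde4b (0.0450) were called lower as well as Fosl2 (edgeR). Rgs1 (0.0789), Nr4a3 (0.240) and Nr4a1 (0.309) were not.

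**Figure D2:**
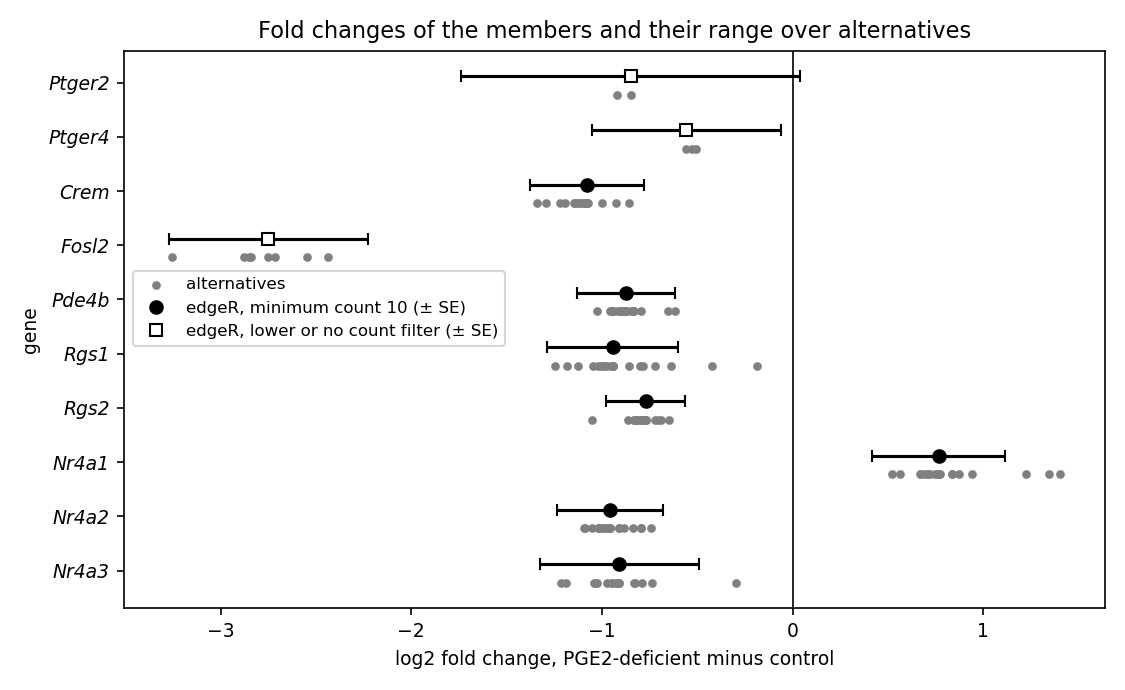
Log2 fold change (PGE2-deficient minus control, horizontal axis) of each gene with its standard error, from the edgeR fit with the highest count minimum that admitted the gene, with alternatives as small points below. Fosl2 stands at -2.75, 8 other genes lie between -1.08 and -0.56, and Nr4a1 stands at 0.77.

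Nr4a1, Nr4a2 and Nr4a3 encode the NR4A orphan nuclear receptors, immediate early genes that need no ligand and are induced by cyclic AMP and by antigen or growth signals. They lie on chromosome 15 (101254269 to 101274795, plus strand), chromosome 2 (57106830 to 57124003, minus strand) and chromosome 4 (48045153 to 48086447, plus strand). Because the family answers cyclic AMP through its promoters, the bases before their RefSeq starts (GRCm38.p6) are shown, 5′ to 3′ on the gene's own strand, with each cyclic AMP response element half-site in capitals (TGACG, or CGTCA for the other strand). The stretches are chr15:101266596-101266845 for Nr4a1, chr2:57124004-57124253 for Nr4a2 and chr4:48045055-48045152 for Nr4a3. No exon of GENCODE M21 overlaps them, and the Nr4a1 stretch lies in an intron of longer transcripts.
Nr4a1: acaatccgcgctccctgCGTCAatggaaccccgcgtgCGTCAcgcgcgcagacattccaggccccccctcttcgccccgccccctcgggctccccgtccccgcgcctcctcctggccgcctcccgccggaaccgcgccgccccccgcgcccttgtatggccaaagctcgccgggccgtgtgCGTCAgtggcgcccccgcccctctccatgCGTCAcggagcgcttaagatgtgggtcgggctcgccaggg
Nr4a2: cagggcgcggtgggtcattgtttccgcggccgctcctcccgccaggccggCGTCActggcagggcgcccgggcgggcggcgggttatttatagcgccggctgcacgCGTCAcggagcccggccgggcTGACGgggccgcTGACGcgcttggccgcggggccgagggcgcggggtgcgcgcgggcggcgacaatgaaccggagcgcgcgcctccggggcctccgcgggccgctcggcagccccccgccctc
Nr4a3: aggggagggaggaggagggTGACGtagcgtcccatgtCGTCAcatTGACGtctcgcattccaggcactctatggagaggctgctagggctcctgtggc

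The windows searched ran from 250 bases before to 50 bases after each start in the RefSeq table, and 8 of the 10 members had one. Each Nr4a gene held 4 half-sites in its window, 1 of those of Nr4a3 outside the printed stretch. Of all 32851 windows, 0.231% held 4 or more. A half-site was found in at least 1 window of 5 of the 8 members, against 6228 of the 27025 genes with a window and 20.8% of all windows. Rgs2 held 2, and Pde4b held 1, in 1 of its 4 windows. The full element TGACGTCA was found in 0 of the 8 (2.03% of all genes), the AP-1 site TGANTCA in 0 (8.97%) and the NR4A site AAAGGTCA in 0 (1.7%), all on both strands. A half-site is part of the full element, so the counts of the 2 overlap by construction. These matches describe letters only.

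Nr4a2 had control values of 322, 327, 492 and 619 CPM and PGE2-deficient values of 273, 130, 245 and 248 CPM. All PGE2-deficient mice were below all control mice. The means were 440 ± 143 and 224 ± 63.6 CPM, a log2 fold change of -0.96 ± 0.28 (SE) with an adjusted p of 0.0506 (edgeR), just outside the threshold. Of the 8 fits that left out 1 mouse, 1 called it, that without control mouse 1 (-1.09, adjusted p 0.0319). It was weakest without control mouse 4 (-0.74, adjusted p 0.170, edgeR).

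Nr4a3 had control values of 57.5, 224, 171 and 463 CPM and PGE2-deficient values of 97.5, 166, 148 and 90.8 CPM. Control mouse 4 was the highest and control mouse 1 the lowest of the 8 mice. The log2 fold change of -0.91 ± 0.42 (SE) did not pass (adjusted p 0.244, edgeR), and without control mouse 4 it was -0.30.

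Nr4a1 had control values of 150, 336, 151 and 110 CPM and PGE2-deficient values of 185, 498, 342 and 264 CPM. Mouse 2 was the highest of its group in each, and the groups overlapped. The means were 186 ± 101 and 322 ± 134 CPM, a log2 fold change of 0.77 ± 0.35 (SE) with an adjusted p of 0.242 (edgeR). Leaving out control mouse 2 raised it to 1.22 (adjusted p 0.0630).

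To set the 3 genes against each other within a mouse, the log2 ratio of their counts plus 1 was compared between groups, a test chosen after the values were seen. For Nr4a1 over Nr4a2 the ratio was -1.27 ± 1.03 in control and 0.47 ± 1.01 in PGE2-deficient mice (SD, n = 4 each; exact two-sided permutation p = 0.0571, 0.129 adjusted over the 3 ratios). For Nr4a1 over Nr4a3 it was -0.10 ± 1.39 and 1.26 ± 0.30 (exact permutation p = 0.0857, adjusted 0.129). For Nr4a2 over Nr4a3 it was 1.17 ± 0.87 and 0.79 ± 0.81 (exact permutation p = 0.629). With 4 mice against 4 the smallest p the test can give is 0.0286. None of the 3 passed, so a difference in behaviour between Nr4a1 and its 2 relatives was not shown.

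Per kilobase of exon the order of levels in control mice was Rgs2 (167 ± 16.1 CPM per kb), Rgs1 (152 ± 85.6), Nr4a2 (108 ± 35.3), Crem (55.9 ± 12.2), Nr4a1 (53.1 ± 28.9), Pde4b (41.6 ± 14.2), Nr4a3 (38.2 ± 28.5), Fosl2 (13.3 ± 5.06), Ptger4 (10.1 ± 6.69) and Ptger2 (4.96 ± 2.58). Except for Nr4a2 and Crem, each pair of neighbours in this order differed by less than the larger SD of the pair. In PGE2-deficient mice Nr4a1 stood second (91.9 ± 38.1 CPM per kb), after Rgs2 (97.1 ± 19.97) and before Rgs1 (81.8 ± 28.2), within the spread of both. Nr4a2 (55.2 ± 15.7), Crem (26.8 ± 10.0), Pde4b (22.8 ± 2.43) and Nr4a3 (20.97 ± 6.21) followed. Fosl2 was last, at 1.68 ± 1.44 CPM per kb, after Ptger4 at 7.58 ± 1.63 and Ptger2 at 2.62 ± 2.10, and within the spread of Ptger2.

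Among the 3 pools of a mouse, 10 cells each, Rgs1 varied most. Its counts in the control pools were 4, 38 and 32 in mouse 1, 29, 73 and 94 in mouse 2, 4, 0 and 29 in mouse 3, and 61, 111 and 2 in mouse 4. Its PGE2-deficient pools held 6 to 43 counts. The chi-square per degree of freedom among pools of the same mouse, which is about 1 for counting noise alone, was 18.8 for Rgs1. The median over the 186 tested genes with counts within 1.5 times its own was 2.40, and 1 of them was as uneven.

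The NR4A genes were uneven too, at 5.64 for Nr4a1, 5.57 for Nr4a2 and 5.18 for Nr4a3, against medians of 1.78, 1.85 and 1.66 for genes of like counts. Of those genes, 21 of 576, 26 of 443 and 18 of 820 were as uneven. Pde4b (3.22), Rgs2 (3.05) and Crem (2.94) stood against medians of 1.86, 1.95 and 1.75, and Fosl2 (1.94) against 1.41. Ptger4 (1.13) was below its median of 1.35. In control mouse 1 the 3 pools held 64.8, 534 and 313 CPM of Nr4a2. Pools of the same tumour thus differed in Rgs1 and the NR4A genes by more than most genes of like counts, while Ptger4 was close to counting noise.

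**Figure D3:**
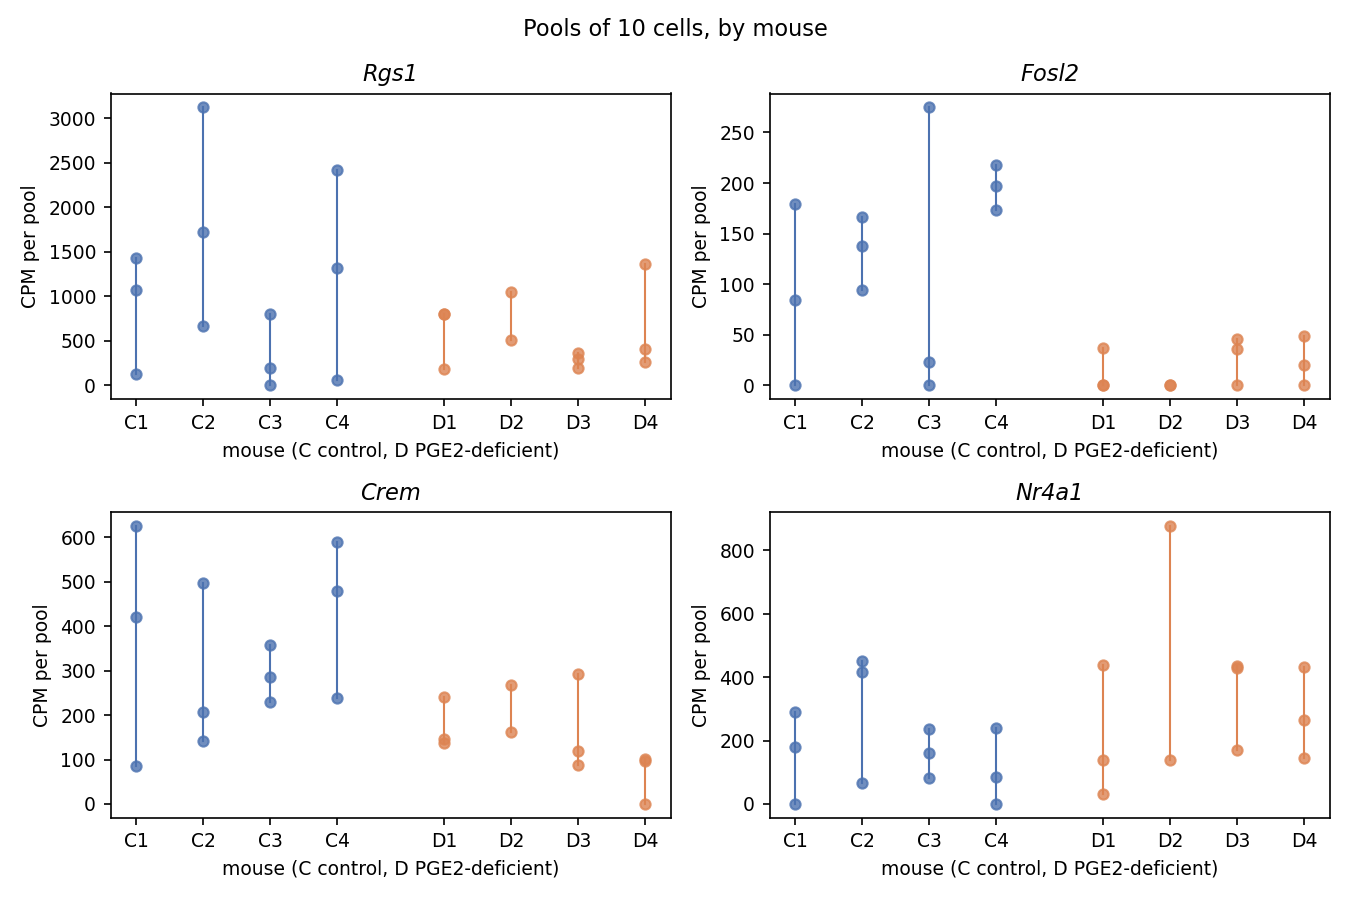
CPM in each pool of 10 cells (vertical axes) by mouse (horizontal axis), for Rgs1, Fosl2, Crem and Nr4a1, with a line joining the pools of a mouse. Rgs1 runs from 0 to 3122 CPM over control pools, and both pools of PGE2-deficient mouse 2 are at 0 for Fosl2.

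Over the 23 pools, Nr4a2 and Pde4b rose and fell together most closely among member pairs (Spearman rho 0.580), followed by Nr4a3 and Fosl2 (0.560) and Nr4a3 and Pde4b (0.522). After the group means were subtracted these were 0.317, 0.327 and 0.548. Nr4a1 went the other way from Pde4b (-0.447), Fosl2 (-0.355), Crem (-0.326), Nr4a3 (-0.325) and Nr4a2 (-0.311), and within groups these values were -0.193, -0.226, -0.295, -0.232 and -0.101. With Rgs1 and Rgs2 it had a rho of 0.0035 each. Ptger4 followed Rgs1 (0.469, and 0.465 within groups). Pools of a mouse share a tumour, and genes in a pool share its depth, so these are descriptions.

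The tested gene most like Crem over the 23 pools was Gpr55 (rho 0.727), followed by Kdm4a (0.715) and Il1b (0.677). Gpr55, a lipid-responsive G protein-coupled receptor, was also most like Pde4b (0.759), ahead of Foxn3 (0.686) and the histone demethylase gene Kdm6b (0.678). Nr4a3 was nearest to Bhlhe40 (0.804), then Syngr2 (0.702) and Kdm6b (0.687). Rgs2 was nearest to Havcr2, which encodes TIM-3 (0.755), then Rpl21-ps15 (0.722) and Gmfg (0.682). Nr4a2 was nearest to Wfdc17 (0.694), Serinc1 (0.674) and Arl8b (0.633).

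Nr4a1 was nearest to Calr, which encodes the chaperone calreticulin (0.743), then Gm9844 (0.635) and Gm5921 (0.633), and Rgs1 to Btf3 (0.655), Lst1 (0.618) and Ube2d2a (0.613). After the group means were subtracted, the value for Gpr55 was 0.536 with Crem and 0.547 with Pde4b, and those of Kdm4a and Il1b with Crem were 0.489 and 0.371. Foxn3 and Kdm6b with Pde4b were at 0.449 and 0.546. Those of Rgs2 were 0.478 with Havcr2, 0.349 with Rpl21-ps15 and 0.591 with Gmfg, and those of Nr4a2 were 0.536 with Wfdc17, 0.531 with Serinc1 and 0.309 with Arl8b. Nr4a3 kept 0.733 with Bhlhe40, 0.698 with Syngr2 and 0.682 with Kdm6b. For Nr4a1 the values were 0.779 with Calr, 0.569 with Gm9844 and 0.733 with Gm5921, and for Rgs1 0.622 with Btf3, 0.633 with Lst1 and 0.760 with Ube2d2a. The likeness of Crem, Rgs2, Nr4a2 and Pde4b to their nearest genes was thus lower within groups. That of Nr4a3 and Rgs1 changed less, with Ube2d2a higher, and Nr4a1 rose with Calr and Gm5921 and fell with Gm9844. The nearest genes were picked on values that include the group difference. For members that differed by group, the choice thus favoured a lower value within groups, and genes that themselves differed between groups. Gpr55 itself fell, from 125 ± 22.5 to 38.3 ± 18.5 CPM (log2 fold change -1.77 ± 0.40 SE, adjusted p 0.0146, edgeR), as did Kdm6b (-1.04, adjusted p 0.0354), Foxn3 (-1.90, adjusted p 0.0283) and Wfdc17 (-1.28, adjusted p 0.0109). Gpr55 held 73 counts in all and may have passed the count minimum through its control counts alone. Leaving out 1 mouse in turn kept the call of Wfdc17 in 8 of 8 fits, Foxn3 in 5, Gpr55 in 3 and Kdm6b in 2, with adjusted p up to 0.0999 (edgeR). Calr was at 0.02 and Bhlhe40 at -0.50 (adjusted p 0.546), and neither was called.

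The rest of the pathway was given by lists of genes chosen by known role. For PGE2 synthesis, transport and breakdown, 6 of 10 genes had a row and 1 was tested. That gene, Ptges3, which encodes a cytosolic PGE2 synthase and HSP90 co-chaperone, stood at 220 ± 37.7 and 252 ± 104 CPM (log2 fold change 0.22, adjusted p 0.753, edgeR). Ptgs2 had 4 counts in control and 14 in PGE2-deficient mice, the 14 in 1 mouse. Of 7 other prostanoid receptors, 2 had a row and 0 were tested. In the lists that follow with 0 genes called by edgeR, DESeq2 also called 0, and it gave no adjusted p to any gene of the CREB factor list. Of their genes Crtc2 and Jun had an unadjusted p under 0.05 (edgeR).

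Among Gs, adenylyl cyclases and cyclic AMP effectors, 3 of 21 genes were tested and 0 were called, with a median log2 fold change of -0.34. The protein kinase A regulatory subunit genes Prkar1a (284 ± 45.0 and 208 ± 67.8 CPM, -0.49, adjusted p 0.360) and Prkar2a (-0.34, adjusted p 0.609) had the smallest p. Adcy7, the adenylyl cyclase of haematopoietic cells, had 34 and 55 counts, and Gnas, the stimulatory G protein subunit, 27 and 31. Of the 10 CREB factors, coactivators and salt-inducible kinases, 3 were tested and 0 called (median -0.06). The smallest p was that of the CREB coactivator gene Crtc2, at 110 ± 14.8 and 66.6 ± 11.8 CPM with no overlap between groups (-0.72 ± 0.34 SE, adjusted p 0.266, edgeR). Crebbp followed (0.18, adjusted p 0.851).

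No other cyclic AMP phosphodiesterase reached the count minimum, with 7 of 11 having a row. Summed, these held 85 and 55 counts, or 172 to 242 CPM in control and 66.0 to 156 CPM in PGE2-deficient mice. Pde3b had the most counts, 39 and 19 (log2 fold change -1.23 and adjusted p 0.277 with a minimum count of 5, edgeR). Of 16 other RGS genes, 8 had a row and only Rgs10 was tested (-0.05, adjusted p 0.940).

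Of 20 other CREB-responsive genes, 9 were tested, 1 was called lower and 0 higher, with a median log2 fold change of 0.18. The called gene was Il1b, the interleukin-1 beta gene, at 2097 ± 500 CPM in control and 721 ± 88.2 CPM in PGE2-deficient mice (-1.55 ± 0.18 SE, adjusted p 1.55e-05, edgeR), and it was called in all 20 alternatives. Fos was higher in all 4 PGE2-deficient mice than in all control mice but missed the threshold (0.71 ± 0.21 SE, adjusted p 0.0568). Dusp1, a MAP kinase phosphatase gene, was at 1.02 (adjusted p 0.0698). Of 8 other AP-1 subunits 3 were tested and 0 called (median -0.32), with Jun at -1.30 ± 0.43 (adjusted p 0.0892) and Jund at -0.32 (adjusted p 0.683). The tested CREB-responsive genes thus had values on both sides of 0, with Il1b at one end and Dusp1 at the other.

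**Figure D4:**
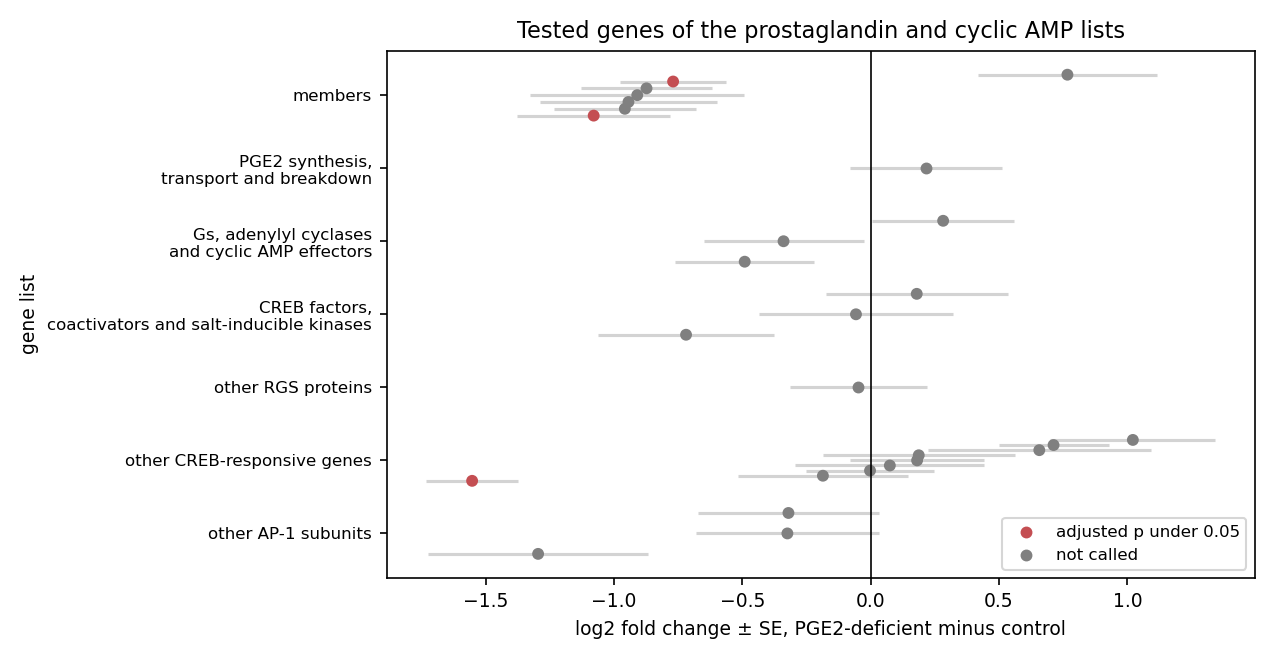
Log2 fold change ± SE (PGE2-deficient minus control, horizontal axis) of each tested gene, by gene list (vertical axis), with called genes in red. Crem, Rgs2 and, at -1.55, Il1b are the called genes.

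Markers of other cells were measured beside these results. Plasmacytoid dendritic cell (pDC) markers, all 7 with a row, summed to 80.5 to 1084 CPM in control and 41.3 to 119 CPM in PGE2-deficient mice. Tcf4 had the most counts and was the 1 tested. It fell (-2.08, adjusted p 0.0163, edgeR), with adjusted p of 0.0576 to 0.0609 without control mouse 3, control mouse 4 or PGE2-deficient mouse 4. The defining genes Siglech and Ly6d were at 42 and 34 counts in control and at 0 in PGE2-deficient mice. All 8 macrophage markers had a row and 0 were tested, and they summed to 10.0 to 1032 and 16.5 to 68.2 CPM, led by Apoe (100 and 7 counts) and C1qb (40 and 0). Type 2 conventional dendritic cell (cDC2) markers, 8 of 8 with a row and 0 tested, summed to 261 to 627 and 48.7 to 474 CPM, led by Cd209a (49 and 5 counts) and Sirpa (40 and 9). Of that list Cd209d (8 and 24 counts) and Tnfsf9 (10 and 14) went the other way. T cell markers, 8 of 9 with a row, did so too, with 11 and 58 counts in all, led by Cd3d (5 and 18) and Trbc2 (1 and 18). Of 5 monocyte markers 4 had a row and 3 were tested, with 0 called by edgeR and 1, Ccr2, at an unadjusted p under 0.05 (log2 fold change 1.08, adjusted p 0.0536, and 0.0963 by DESeq2). They summed to 138 to 643 and 522 to 556 CPM, led by Ccr2 and Ms4a4c.

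Markers of mature dendritic cells, a state that cDC1 themselves can take, were higher in part. All 12 had a row, and they summed to 909 to 1709 CPM in control and 1245 to 4472 CPM in PGE2-deficient mice, with overlap. Of 6 tested 2 rose and 0 fell, with a median log2 fold change of 1.18. These were Il12b, which encodes an interleukin-12 subunit (2.86 ± 0.71 SE, adjusted p 0.0259, edgeR), and Cacnb3 (1.65 ± 0.45, adjusted p 0.0432). The groups overlapped for Il12b. Not called were Fscn1 (1.54, adjusted p 0.0546), Cd274 (0.83, 0.301), Ccr7 (0.45, 0.489) and Cd86 (-0.04, 0.955, edgeR). Without PGE2-deficient mouse 1, Il12b was at 1.82 (adjusted p 0.119), and without control mouse 3 at 2.53 (0.0724). Cacnb3 was called in 3 of the 8 fits that left out 1 mouse, and was not without control mouse 1, 2 or 3 or PGE2-deficient mouse 1 or 2 (adjusted p up to 0.114).

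The marker list values that follow had no group means subtracted, so differences between groups enter them. Likeness to the lists within groups was not tested. Over pools, Pde4b (rho 0.595), Nr4a2 (0.545), Nr4a3 (0.509) and Crem (0.478) followed the pDC markers. Pde4b (0.549), Rgs2 (0.458) and Fosl2 (0.407) followed the cDC2 markers. Fosl2 (-0.662), Crem (-0.555), Pde4b (-0.495) and Rgs2 (-0.451) ran against the cDC1 markers. With the mature dendritic cell markers Nr4a3 (0.390) and Rgs1 (0.356) went up, Rgs2 went down (-0.437), and Crem (0.064) and Pde4b (-0.022) did neither. The part of cDC2, monocyte and mature dendritic cell markers in the results was not tested, and values in pools with few counts of the other markers follow.

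The 5 control and 8 PGE2-deficient pools with under 10 counts of macrophage, pDC and T cell markers still covered all 8 mice. Group values of CPM here are summed counts over summed totals of tested genes, without TMM scaling and not averaged over mice. Rgs2 held 660 CPM in control and 327 in PGE2-deficient pools, and Pde4b 414 and 216 CPM. For both, all PGE2-deficient mice were below all control mice in these pools as well. The share of all genes separated in these pools was not taken. Control mice 2, 3 and 4 and PGE2-deficient mouse 2 rested on a single pool each. Crem held 438 and 173 CPM and Fosl2 102 and 18.5 CPM, with overlap of single mice. Nr4a2 (420 and 269 CPM) and Rgs1 (792 and 593 CPM) differed less than in all pools, Nr4a3 was nearly level (156 and 145 CPM), and Nr4a1 was again higher (150 and 324 CPM). A fit on these pools tested 873 genes and called 13. Crem was at -1.34 (adjusted p 0.170), Rgs2 at -1.05 (0.176), Pde4b at -0.96 (0.169) and Nr4a2 at -0.79 (0.463, edgeR). Rgs1 was at -0.42 (0.855) and Nr4a1 at 1.345 (0.298, edgeR). The calls of Crem and Rgs2 were thus lost. Their fold changes were no smaller than over all pools, and those of Nr4a2 and Rgs1 were smaller. The cause was not tested. In the 7 control and 3 PGE2-deficient pools left out, mice of the 2 groups overlapped for Rgs2 (555 and 459 CPM) and Pde4b (461 and 325 CPM). They did not for Rgs1, Nr4a2 and Fosl2, which were lower in the PGE2-deficient mice that had such pools. PGE2-deficient mouse 1 had none, and PGE2-deficient mice 2, 3 and 4 and control mouse 1 had a single pool each. The share of all genes separated was not taken for these pools either.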

How the data were processed

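Pools of 10 sorted cells were sequenced with Smart-seq3. The authors deposited counts per gene for each library. Per the submitters' processing notes reads were aligned with STAR 2.5.4b to GRCm38 (mm10), and the sources used here name no counting tool or annotation and do not say if reads or UMIs were counted. Spreadsheet software had replaced 16 gene symbols by dates.

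Counts were summed per mouse, the biological replicate, so 4 mice were compared with 4. Genes were kept by edgeR's filterByExpr (minimum count 10), scaled with TMM and tested with edgeR 4.0.16's quasi-likelihood test in R 4.3.3, with Benjamini-Hochberg adjustment over all 2076 tested genes. The minimum need not be met in both groups. Genes low in 1 group, such as Gpr55, Xcr1, Il12b, Cacnb3 and Tcf4, may have entered the test through the other group alone. The SE is the log2 fold change divided by the square root of F. CPM is taken over the counts of tested genes, 80.6% of all. Lower count minimums, other scalings, DESeq2 1.42.0, limma 3.58.1 and omission of each mouse were the alternatives. Figures were drawn with Python 3.11.15 and matplotlib 3.10.9. P-values and floors of 3 counts cover these libraries, and floors counting error only. Gene lengths and coordinates are from GENCODE M21, promoters from RefSeq.

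The text names all 10 members, the called genes of each pathway list or else the 2 tested genes of smallest p, the 3 tested genes most like each member over pools, and the 2 most abundant markers of other cells. Other genes, those of the cDC1 and mature lists included, were named after their values were seen. The members and lists were chosen with earlier results of these data known.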

Additional observations from a re-analysis of the deposited data

Results flagged for a closer look

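In groups of 4 mice, 2 of the 40 sets of values checked had 1 mouse far from the other 3, by Dixon's 95% criterion on the gap to the nearest mouse. Chance alone gives about 1 in 20 such sets. Both concern Prkar1a, the protein kinase A regulatory subunit gene. Control mouse 3 held 351 CPM, with the other 3 control mice between 253 and 267 CPM. PGE2-deficient mouse 2 held 308 CPM, with the other 3 between 163 and 185 CPM.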

How the results depend on the processing

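In every fit that included them, Nr4a1 was higher and the other 9 genes lower in PGE2-deficient mice, and 0 members were called higher. The number called lower, 2 in the main analysis, was 4 with upper quartile scaling, without a count filter, with DESeq2, with robust dispersion and without mitochondrial and ribosomal RNA rows. It was 5 with a minimum count of 5, 1 with the mouse number as a replicate block, and 0 with total counts only, with limma-voom over libraries, with pools 2 and 3 alone and without pools holding 10 or more marker counts of other cells. The limma-voom fit tested only 4 members, Rgs1, Rgs2, Nr4a2 and Pde4b, and not Crem. That without the marker pools tested 6. Leaving out 1 mouse gave 0 to 4, with 0 without control mouse 4. Equal counts could hold different genes. Without a count filter Crem, Rgs1, Nr4a2 and Fosl2 were called and Rgs2 was not (adjusted p 0.0691, edgeR). All genes called, 103 in the main analysis, were 194 without a count filter, 51 with pools 2 and 3 alone, 13 without the marker pools and 56 (without control mouse 2) to 111 on leaving out 1 mouse. The split was 56 higher and 47 lower, 45 and 67 with upper quartile scaling, 70 and 24 with total counts and 48 and 61 with DESeq2. Same-numbered mice deviated with r of -0.09 to 0.07, and 1 of 4 was closest to its own number. No label ties the numbers, and these values cannot show whether same-numbered mice were handled together. With the block, 73 genes were called, and of the members only Rgs1 (-0.78, adjusted p 0.0467, edgeR). Crem (adjusted p 0.0804) and Rgs2 (0.0504) were not called in that fit. Rgs10 changed sign, to 0.032 with total counts, 0.20 with limma-voom, 0.94 without the marker pools and -0.209 to 0.081 on leaving out 1 mouse, and Ptges3 ranged from -0.10 to 0.39. The cause was not tested. Depth limited Ptger2 to 18 counts in all, and Fosl2 to fits with a low count minimum or fewer mice.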

Other observations

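Genes known to be induced when tissue is dissociated were measured beside the cyclic AMP targets, since both groups hold immediate early genes. Of 18 such genes 14 were tested, 1 was called higher and 0 lower in PGE2-deficient mice, with a median log2 fold change of 0.28. Hsp90aa1, a heat shock chaperone gene, rose from 470 ± 116 to 790 ± 162 CPM (SD, n = 4 mice each; log2 fold change 0.75 ± 0.21 SE, adjusted p 0.0466, edgeR). That call held in 8 of 20 alternatives, and on leaving out 1 mouse in 2 of 8 fits, with adjusted p up to 0.168. Hspa1a stood at 1.25 (adjusted p 0.102) and Ier3 at -1.54 (adjusted p 0.126). The summed list spanned 3899 to 5489 CPM in control and 4506 to 7085 CPM in PGE2-deficient mice. Over pools, without subtraction of group means, it followed Ptger4 (rho 0.531) more than Nr4a1 (0.142) or Crem (-0.293).

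Crtc3, a CREB coactivator gene named after its values were seen, had 23 counts in control and 7 in PGE2-deficient mice, or 53.4 ± 12.5 and 13.0 ± 10.2 CPM, too few for the main test.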
